A study of Mus musculus with 6 samples.

Results

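Keratins are the intermediate filament proteins of epithelial cells, and 8 of their genes were followed here: Krt4, Krt7 and Krt8, which encode type II (basic) chains, and Krt14, Krt18, Krt19, Krt20 and Krt23, which encode type I (acidic) chains. They were chosen by name, with earlier results of these data known. Each matched 1 row of the count table, and they are 8 of its 24594 rows. The RNA came from mouse small-intestinal organoids, cultured epithelial structures with crypt-like buds and villus-like domains, which per the labels had grown from single cells for 96 h. One group then received NIBR-LTSi, known as an inhibitor of the Hippo pathway kinases LATS1 and LATS2, at 5 uM for 24 h, and the other received the solvent DMSO for the same time. Each group has 3 libraries, named below by group and replicate number. Strain, age and genotype are not in the labels, and neither is whether each library had its own culture. A p-value here therefore reflects the scatter among these 6 libraries, and that scatter could be purely technical.

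A keratin filament is built from pairs of 1 type I and 1 type II chain, so an epithelial cell needs both types. Simple epithelia such as the intestinal lining use KRT8 as the main type II chain, with KRT18, KRT19 and KRT20 as type I partners, and KRT20 is known as a marker of the differentiated villus cells. KRT7 belongs to ductal and other simple epithelia, KRT23 is a little-studied type I chain, and KRT4 and KRT14 belong to stratified epithelia, in the upper layers of mucosa and in the basal layer of skin. The filaments give cells mechanical strength and are anchored at desmosomes and hemidesmosomes.

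Total counts per library ranged from 18395427 to 26767043, and the 8 genes together held 0.503% to 0.700% of them. Of the defining markers of other cell types, Dcn, Lum, Des and Thy1 (fibroblasts and muscle), Cdh5 and Kdr (endothelium), Cd3e and Itgax (immune cells) and Sox10 (glia) had no count in any library. The summed level of the 10 fibroblast and muscle markers was 2.28 to 3.45 CPM with DMSO and 1.96 to 2.12 CPM with NIBR-LTSi, most of it from Pdgfrb. The 6 immune markers summed to 1.72 to 2.003 and 1.96 to 2.63 CPM, the 4 endothelial markers to 0.641 to 0.803 and 0.329 to 0.655 CPM, and the 3 glial markers to 0.561 to 0.667 and 0.723 to 0.982 CPM. The 7 epithelial markers, which include Krt8 and Krt18, summed to 6421 to 6526 and 6871 to 7328 CPM, so the libraries hold epithelial RNA as labelled; 2 of them (Krt8, Krt18) were called higher and 2 (Vil1, Cldn7) lower. No marker of the other 4 lists was called. In bulk samples such as these, fewer cells of a type and less RNA per cell cannot be told apart.

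With NIBR-LTSi, 7 of the 8 keratins were called higher and none lower, while Krt20 was not called. Over all 12592 tested genes 42% were called, 22.8% higher and 19.2% lower (edgeR quasi-likelihood test, adjusted p under 0.05). As the 8 genes were chosen with earlier results of these data known, this contrast is a description and no test of keratins as a set. Krt7 and Krt23 rose about equally, Krt8 and Krt18 by less, and Krt19, the most abundant type I chain, by the least of the 7. The stratified keratins Krt4 and Krt14 rose from a few counts. These last genes passed the filter on low counts only through the NIBR-LTSi libraries, so they had to differ to be tested and their calls add nothing to that count. The same 7 calls were made under all 16 alternative settings, which reuse these libraries and are not independent of each other.

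**Figure D1:**
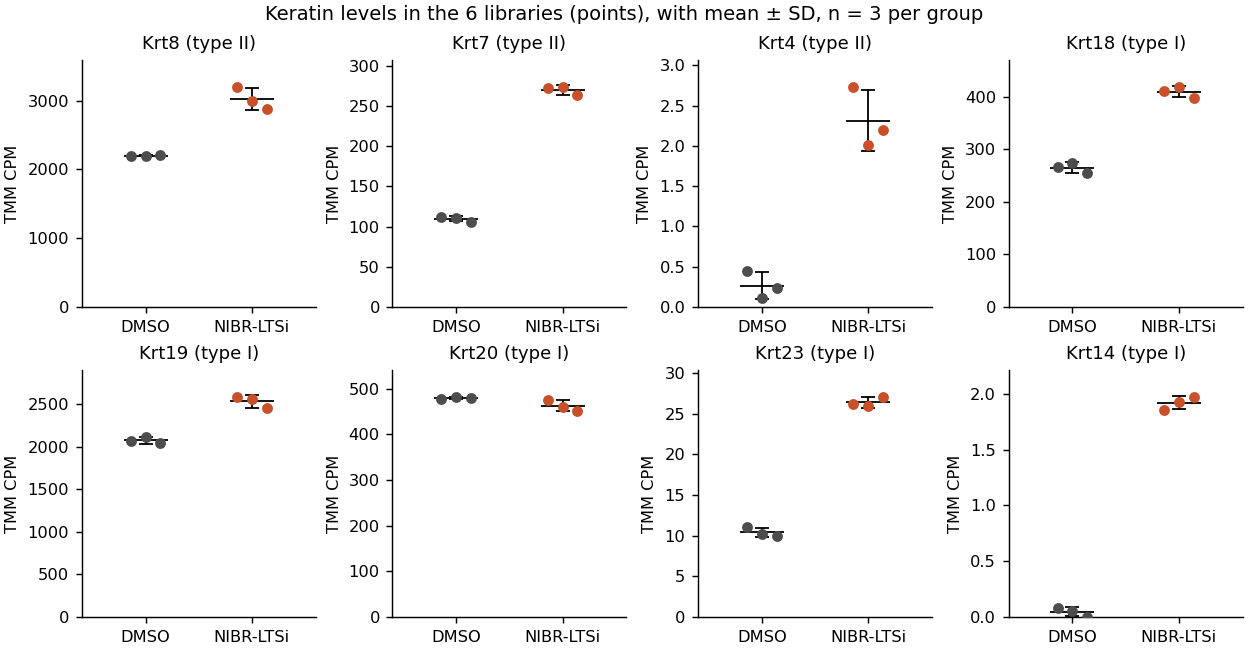
TMM-normalised CPM (vertical axes, linear from 0, 1 panel per gene) of the 8 keratins in each library (points), with the mean and SD of 3 libraries per group (bars). In every panel except that of Krt20 the NIBR-LTSi points lie well above the DMSO points; Krt20 lies between 452 and 483 CPM in all 6 libraries.

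Krt8 (Entrez 16691; chromosome 15, 101996711 to 102004342, GRCm38.p6) encodes the main type II chain of simple epithelia. Its level in CPM, read counts relative to the TMM-scaled library size, was 2188, 2200 and 2209 for the DMSO libraries in replicate order, against 3203, 2988 and 2880 after NIBR-LTSi. The groups did not overlap, and the DMSO libraries lay within 21 CPM of each other while the treated ones spread more. The log2 fold change, NIBR-LTSi over DMSO, was 0.46 ± 0.04 (SE; edgeR quasi-likelihood test, Benjamini-Hochberg adjusted p = 2.79e-06), a 1.38-fold rise. Complete separation of this kind with NIBR-LTSi higher was seen in 28% of all tested genes.

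Krt18 (Entrez 16668; chromosome 15, 102028216 to 102032026) encodes the classical type I partner of KRT8. It was at 266, 275 and 255 CPM with DMSO and at 410, 420 and 399 CPM with NIBR-LTSi. All treated libraries lay above all controls, and the change was 1.55-fold (log2 0.63 ± 0.04 SE, adjusted p = 2.02e-07). Krt18 is the only type I gene in the type II cluster: the Krt8 and Krt18 start sites are 23874 bases apart and the genes point away from each other.

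Krt19 (Entrez 16669; chromosome 11, 100140810 to 100145926), the smallest type I keratin and one widespread in crypt and villus, was at 2066, 2121 and 2045 CPM with DMSO. With NIBR-LTSi it was at 2591, 2562 and 2452 CPM. The groups were again separate, but the rise was the smallest among the 7 called keratins, 1.22-fold (log2 0.29 ± 0.03 SE, adjusted p = 3.49e-05). For comparison, 75% of all tested genes had a log2 fold change under 0.22, and 95% had one under 0.76.

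Krt7 (Entrez 110310; chromosome 15, 101412403 to 101427806) is the type II chain of ductal epithelia. It was at 112, 111 and 106 CPM with DMSO and at 273, 274 and 263 CPM with NIBR-LTSi. Each group varied by only a few percent, and the rise was 2.47-fold (log2 1.30 ± 0.04 SE, adjusted p = 9.20e-10). A rise of at least 2-fold was called in 2.85% of all tested genes.

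Krt23 (Entrez 94179; chromosome 11, 99477973 to 99493120) was far less abundant than Krt7, with 11.1, 10.2 and 9.97 CPM under DMSO. Under NIBR-LTSi it was at 26.1, 25.9 and 27.1 CPM. The groups were far apart, and the rise of 2.53-fold (log2 1.34 ± 0.07 SE, adjusted p = 4.51e-08) was close to that of Krt7; the difference between these genes was not tested.

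Krt20 (Entrez 66809; chromosome 11, 99428385 to 99438153), the villus keratin, was at 477, 483 and 480 CPM with DMSO and at 476, 461 and 452 CPM with NIBR-LTSi. Every treated library lay below every control, the nearest by about 1 CPM, and separation in that direction was found in 24.5% of all tested genes. The log2 fold change of -0.05 ± 0.03 (SE) did not pass the test (adjusted p = 0.241). Under the 16 alternatives the log2 fold change of Krt20 ranged from -0.08 to -0.01 and was never called.

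Krt4 (Entrez 16682; chromosome 15, 101918535 to 101924735), the type II keratin of stratified mucosa such as oesophagus, had 11, 2 and 5 counts in the DMSO libraries and 53, 49 and 60 in the NIBR-LTSi libraries. The ratio of the summed counts, scaled by library size, was 8.11 (exact 95% interval 4.97 to 14.03, counting error only), and the test gave an adjusted p of 4.47e-05. Krt14 (Entrez 16664; chromosome 11, 100203162 to 100207510), the type I keratin of basal keratinocytes, had 2, 1 and 0 counts with DMSO and 36, 47 and 54 with NIBR-LTSi. All treated libraries held it at a like level, 1.86 to 1.97 CPM. With only 3 counts in the control group its ratio of 41.2 is loosely bounded (exact 95% interval 13.8 to 202; adjusted p = 3.76e-06). Both genes stayed far below the simple-epithelial keratins: per length, treated Krt14 was at 1.09 RPKM (CPM per kilobase of gene width) and treated Krt8 at 1544 RPKM.

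**Figure D2:**
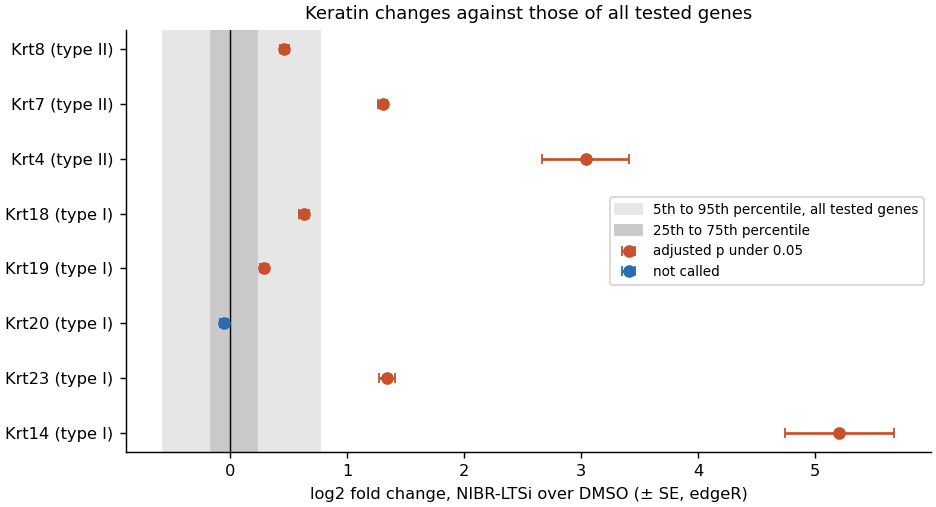
Log2 fold change, NIBR-LTSi over DMSO, of the 8 keratins (points, ± SE from edgeR), over the 5th to 95th and the 25th to 75th percentile of all 12592 tested genes (light and dark bands). Krt19, Krt8 and Krt18 lie above the dark band but within the light band, Krt7, Krt23, Krt4 and Krt14 lie beyond the light band, and Krt20 lies at -0.05.

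The promoters shown are those of the strongest risers with an entry at the annotated gene start, Krt7 and Krt23, and of Krt20, which was not called. They are the 250 bases before each start in RefSeq (GRCm38.p6), on the strand of the gene, and 6 of the 8 members have an entry; Krt4 and Krt19 do not, and the Krt14 entry starts 1480 bases inside the annotated gene. Capitals mark matches to 3 motifs searched on both strands: GGAATG, the core bound by TEAD factors (the DNA-binding partners of YAP and TAZ), TGANTCA, the AP-1 site, and TATAAA, the TATA box.
Krt20 (chr11:99438154-99438403, minus strand): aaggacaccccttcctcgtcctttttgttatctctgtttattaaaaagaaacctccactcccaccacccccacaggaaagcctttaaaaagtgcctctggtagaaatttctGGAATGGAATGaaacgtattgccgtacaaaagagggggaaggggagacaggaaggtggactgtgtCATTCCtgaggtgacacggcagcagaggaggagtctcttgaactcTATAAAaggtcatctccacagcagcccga
Krt7 (chr15:101412153-101412402, plus strand): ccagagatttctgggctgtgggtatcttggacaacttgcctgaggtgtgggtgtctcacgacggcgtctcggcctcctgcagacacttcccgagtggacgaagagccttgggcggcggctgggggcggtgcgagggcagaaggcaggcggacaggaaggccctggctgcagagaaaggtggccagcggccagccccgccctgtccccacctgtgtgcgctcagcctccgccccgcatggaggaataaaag
Krt23 (chr11:99493121-99493370, minus strand): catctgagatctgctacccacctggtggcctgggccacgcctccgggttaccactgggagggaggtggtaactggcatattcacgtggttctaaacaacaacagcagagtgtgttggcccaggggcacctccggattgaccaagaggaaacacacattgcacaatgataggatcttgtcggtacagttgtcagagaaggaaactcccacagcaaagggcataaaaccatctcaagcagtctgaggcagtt
The Krt20 promoter holds 3 TEAD cores. Those beginning 139 and 134 bases before the start share 1 base, and the third, on the opposite strand, begins 74 bases before it. At least 1 such core was present in 12.6% of 32851 promoter windows of the same length, and at least 3 in 30 of them (0.0913%). Krt20 also has a TATA box 29 bases before the start, a motif found in 12.4% of windows. The Krt14 window, which lies inside the annotated gene, holds 1 TEAD core, 66 bases before its entry's start. None of the 3 motifs is in the windows of Krt7, Krt23, Krt8 or Krt18, and no AP-1 match (6.75% of windows) is in any of the 6. The motifs were chosen after the sequences were seen, and a match in this short window is a description, not a binding site.

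Per length of gene, Krt8 and Krt19 stood far above the rest with DMSO, at 1123 ± 5 and 1120 ± 21 RPKM (mean ± SD, n = 3), a difference within their spread. Krt20 followed at 249 ± 2 RPKM, Krt18 at 185 ± 7, Krt7 at 17.3 ± 0.5, Krt23 at 6.65 ± 0.36, Krt4 at 0.123 ± 0.078 and Krt14 at 0.0257 ± 0.0233 RPKM. Apart from Krt8 and Krt19, and Krt4 and Krt14 at a few counts each, neighbours in this order were separated by more than their SDs. With NIBR-LTSi the order changed in 2 places. Krt18 (285 ± 7 RPKM) moved above Krt20 (240 ± 6 RPKM), and Krt14 (1.09 ± 0.03) and Krt4 (1.08 ± 0.18) were indistinguishable.

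These orders depend on the gene length used. The deposited width of Krt7 is 6333 bases, against 4094 for its principal GENCODE transcript and 1371 for its coding part, so its DMSO level is 17.3, 26.8 or 79.9 RPKM by these lengths. It held rank 5 by each. With transcript or coding lengths the mean of Krt19 stood above that of Krt8 in both groups, at 1318 and 1123 RPKM with DMSO by transcript length. The treated means were within their spread by both lengths. They were 1609 ± 47 and 1544 ± 84 RPKM by transcript length, and 2097 ± 61 and 2057 ± 112 RPKM by coding length. With coding lengths treated Krt20 (358) stayed above treated Krt18 (323).

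The type II chains summed to 1140 ± 5 RPKM with DMSO and 1588 ± 85 with NIBR-LTSi, and the type I chains to 1560 ± 29 and 1910 ± 51 RPKM. The type II to type I ratio was 0.731, 0.717 and 0.746 with DMSO and 0.863, 0.813 and 0.817 with NIBR-LTSi, so it was higher in all 3 treated libraries. The exact two-sided permutation test gave p = 0.10, the smallest that 3 libraries against 3 allow, here and for each of the shares that follow (3 comparisons, Benjamini-Hochberg adjusted p = 0.10). The ratio and the shares re-express the member levels given above and add no separate support.

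Within the type I chains the share of Krt20 was 15.9%, 15.7% and 16.2% with DMSO and 12.7%, 12.4% and 12.7% with NIBR-LTSi, lower in each treated library (difference -3.39 percentage points, exact permutation p = 0.10). Krt20 itself was nearly level while the other type I chains rose, so its share had to fall. The share of Krt18 was 11.8% ± 0.2 and 14.9% ± 0.2, and that of Krt19 was 71.8% ± 0.1 and 71.6% ± 0.2 (SD, n = 3). Within the type II chains Krt7 made up 1.56%, 1.53% and 1.46% with DMSO and 2.57%, 2.76% and 2.75% with NIBR-LTSi (difference 1.17 percentage points, exact permutation p = 0.10). By coding length the Krt7 difference is 3.68 percentage points. By deposited width Krt8 remained 97.2% ± 0.1 of the type II sum in treated organoids. Its share is lower by coding length, where treated Krt7 was at 197 RPKM and treated Krt8 at 2057 RPKM.

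**Figure D3:**
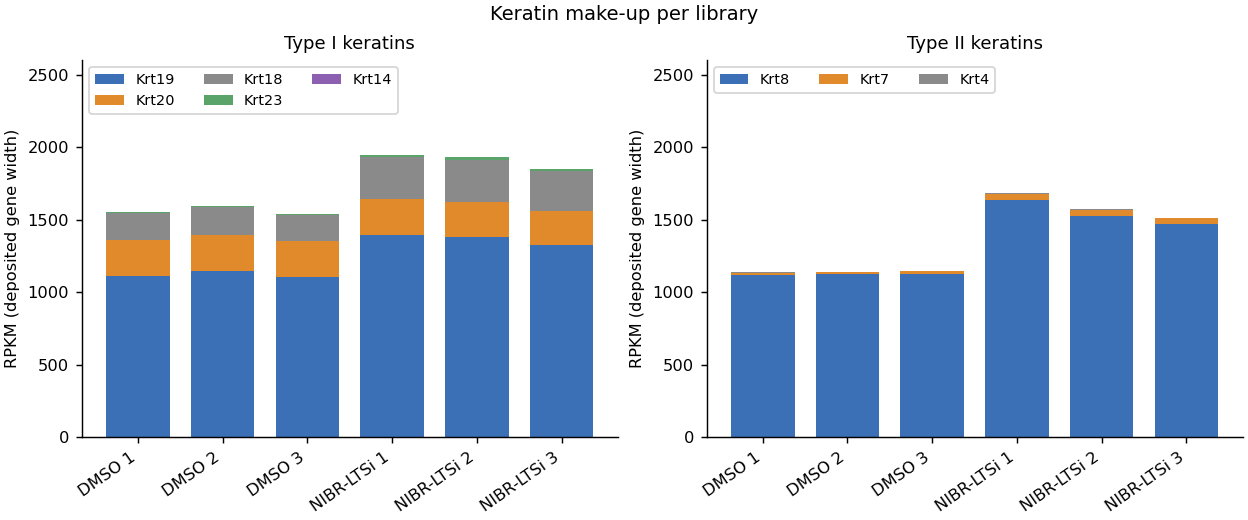
Summed RPKM per library (bars from 0; deposited gene width) of type I keratins (left) and type II keratins (right), split by gene. The NIBR-LTSi bars are taller on both sides; the Krt20 segment is of like height in all bars and makes up a mean of 16.0% of the type I bar with DMSO and 12.6% with NIBR-LTSi.

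The count table has 54 keratin rows, 27 on each of chromosomes 11 and 15, with 4 of the 8 members on each. Among the 46 rows that are not members, 23 had no count in any library and 15 had 1 to 100 counts in all. The remaining 8 had more than 100 counts. Those that passed the filter were also 8, only in part the same rows: Krt10, Krt12, Krt15, Krt75, Krt78, Krt80, Krt83 and Krt222. Of these, only Krt80, a type II keratin of differentiating stratified epithelia, was called. It had 2, 2 and 3 counts with DMSO and 14, 18 and 31 with NIBR-LTSi, with no overlap between groups (ratio 8.11, exact 95% interval 3.71 to 21.0; adjusted p = 1.95e-04). Like Krt4 and Krt14, it passed the filter only through the NIBR-LTSi libraries, so it had to differ to be tested and its call supports nothing. The untested Krt42 had 0, 0 and 0 counts with DMSO and 4, 4 and 5 with NIBR-LTSi; it was named after its values were seen.

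Krt78 was at 0.368 ± 0.224 and 0.827 ± 0.205 CPM and Krt12 at 0.637 ± 0.285 and 1.20 ± 0.40 CPM (adjusted p = 0.0610 and 0.0714). Krt78 was called in limma-voom and with the width adjustment, and Krt12 without DMSO replicate 3 or NIBR-LTSi replicate 1. Krt15, known from basal cells of stratified epithelia, was at 7.81, 7.94 and 1.89 CPM with DMSO and at 3.51, 4.75 and 3.29 CPM with NIBR-LTSi. It was not called (adjusted p = 0.469), but without DMSO replicate 3 it was called lower (log2 fold change -1.03, adjusted p = 3.95e-04). Krt10 and Krt222 were at similar levels in both groups.

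Several keratins of skin and hair were high in single libraries, in DMSO as well as NIBR-LTSi. Krt5, the type II partner of KRT14 in basal keratinocytes, had 749 counts in NIBR-LTSi replicate 2 and at most 3 in any other library. Krt73, a hair root sheath keratin, had 324 counts in that library, 60 in NIBR-LTSi replicate 1 and at most 1 elsewhere. Krt2, an epidermal keratin, had 119 counts in DMSO replicate 1 and at most 1 elsewhere. The hair keratin Krt83 had 182 counts in NIBR-LTSi replicate 3 and 10 to 33 in the others. Krt14 did not follow Krt5: its counts of 36, 47 and 54 were spread over the 3 treated libraries.

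**Figure D4:**
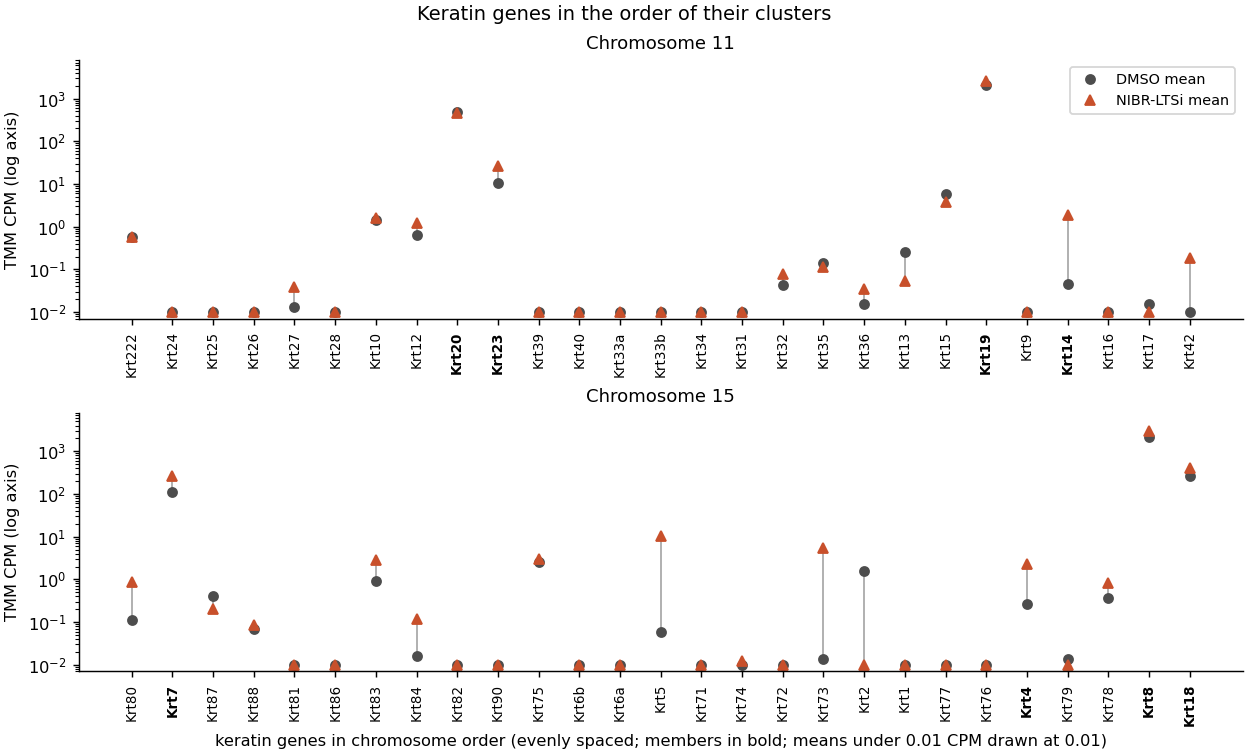
Mean TMM CPM (log axis) with DMSO (circles) and NIBR-LTSi (triangles) for the 54 keratin genes in chromosome order, members in bold and means under 0.01 CPM drawn at 0.01. Krt8 lies beside Krt18 and Krt20 beside Krt23, while many other keratins of both clusters are at or near 0; the gaps at Krt5, Krt73 and Krt2 come from 1 or 2 libraries each, as given in the text.

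Lists of genes that work with keratins are read against the 42% called over all tested genes (22.8% higher, 19.2% lower). Of 13 tested linkers that tie filaments to junctions, 2 were called higher and 3 lower, a share near that background, with a median log2 fold change of 0.13 against 0.02 over all tested genes. Without DMSO replicate 3, 4 linkers were called higher. Pkp1, a desmosomal plakophilin, fell from 19.6, 17.3 and 18.3 CPM to 6.81, 7.32 and 7.90 CPM (adjusted p = 3.28e-07, log2 fold change -1.32). The plakin Ppl (periplakin) rose from 45.3 ± 5.4 to 69.9 ± 2.1 CPM (adjusted p = 5.83e-05), and its partner Evpl (envoplakin) fell from 29.8 ± 4.7 to 20.7 ± 0.3 CPM (adjusted p = 0.00201). Pof1b, an actin- and junction-associated protein, rose from 41.3 ± 1.1 to 49.0 ± 1.8 CPM (adjusted p = 0.00245).

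The plakin Plec, which links keratin to hemidesmosomes, was at 304 ± 67 and 433 ± 29 CPM (adjusted p = 0.0889), and Dsp, the desmosomal anchor of keratin, at 474 ± 79 and 523 ± 46 CPM (adjusted p = 0.493); both were named after their values were seen. Among the linkers, the very long genes had the highest variation between DMSO replicates. Their coefficient of variation with DMSO was 39.2% for Eppk1 (width 12332 bases), 31.3% for Macf1 (32099), 30.7% for Dst (38807) and 22.2% for Plec (17670). With NIBR-LTSi it was 37.1%, 29.2%, 42.0% and 6.61% in the same order, and that of Plec was below that of the shorter Dsp (8.81%). DMSO replicate 3 and NIBR-LTSi replicate 1 were the highest library of their group for each of these genes. The role of transcript length in the linker values was not tested.

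Among 20 tested genes that bind, modify or degrade keratins, 5 were called higher and 5 lower, again near the 42% over all tested genes (median log2 fold change -0.03). Fam83h, which brings casein kinase 1 to keratin filaments, rose from 68.1 ± 1.2 to 101.6 ± 2.1 CPM (adjusted p = 7.07e-07, log2 fold change 0.58). Sqstm1, the autophagy adaptor p62, fell from 236 ± 3 to 197 ± 3 CPM (adjusted p = 8.83e-05). Hspb1, a small heat-shock protein that binds keratin, had only 4 counts in all.

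Of the other intermediate filament genes, 7 of 12 were tested, with 2 higher and 2 lower (median log2 fold change -0.18). The nuclear lamins Lmnb1 (55.8 ± 1.4 to 82.1 ± 1.9 CPM, adjusted p = 1.58e-06) and Lmna (118 ± 4 to 168 ± 5 CPM, adjusted p = 2.24e-06) rose, while Lmnb2 fell from 76.0 ± 2.9 to 67.0 ± 3.9 CPM (adjusted p = 0.0165; not called without DMSO replicate 1 or with library totals only). Vim, which encodes the mesenchymal filament vimentin, was at 5.93, 8.11 and 6.05 CPM with DMSO and at 5.01, 5.44 and 4.79 CPM with NIBR-LTSi. It was called lower (log2 fold change -0.39, adjusted p = 0.0431), a call lost in 7 of the 16 alternatives, among them DESeq2, limma-voom and leaving out DMSO replicate 2 or any 1 NIBR-LTSi library. The filament genes Des and Gfap had no count.

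Of 15 transcription factors tied to epithelial keratin genes, 10 were tested, with 2 higher and 2 lower (median log2 fold change -0.03). Klf4, a factor of differentiated epithelium, rose from 58.3 ± 1.0 to 71.9 ± 3.3 CPM (adjusted p = 3.49e-04), and Hnf4a, an enterocyte nuclear receptor, from 966 ± 30 to 1058 ± 17 CPM (adjusted p = 0.00932; not called without DMSO replicate 1, without NIBR-LTSi replicate 2, or with width adjustment and replicate block together). The ETS factor Elf3 fell from 259 ± 12 to 207 ± 2 CPM (adjusted p = 6.37e-05), and the homeobox factor Cdx1 from 230 ± 8 to 195 ± 7 CPM (adjusted p = 7.05e-04). Trp63, the master regulator of stratified epithelium, had 5 counts over all libraries and was not tested.

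Other genes of stratified epithelium were mostly near the detection limit, so that only 5 of 17 were tested and 1 was called. Lor, which encodes the cornified envelope protein loricrin, had 5, 10 and 6 counts with DMSO and 21, 45 and 50 with NIBR-LTSi (0.346 ± 0.186 to 1.58 ± 0.43 CPM, adjusted p = 6.25e-04). Lor too passed the filter only through the NIBR-LTSi libraries, so its call supports nothing about the list. Itga6, a chain of the hemidesmosomal integrin, was not called (adjusted p = 0.185), nor was Sprr1a, a cornified envelope precursor (15.1 ± 1.4 and 16.8 ± 0.3 CPM, adjusted p = 0.1497). With the width adjustment, with and without the replicate block, Itga6 was called lower (adjusted p = 0.0203 and 0.00739) and Sprr1a higher (adjusted p = 0.0381 and 0.0290). Sprr1a was also called without DMSO replicate 1 (adjusted p = 0.0454). The untested Krt13, Krt17, Ivl and Dsg3 had 22, 1, 27 and 16 counts over all libraries. Ivl had 13 and Krt13 had 15 of their counts in DMSO replicate 1, while Dsg3 had 0, 0 and 0 counts with DMSO and 5, 10 and 1 with NIBR-LTSi. Without the low-count filter, 3 genes of the list were called higher.

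The villus differentiation list, set beside Krt20, was split evenly: 7 of 19 tested genes were called higher and 7 lower, with a median log2 fold change of -0.02. Both shares are above the 22.8% higher and 19.2% lower over all tested genes. The list was chosen with earlier results known, and the difference in shares was not tested. Lct (lactase) rose from 54.1 ± 4.7 to 200.2 ± 10.9 CPM (adjusted p = 4.40e-09) and the aminopeptidase Anpep from 1769 ± 2 to 2561 ± 23 CPM (adjusted p = 7.76e-08). Fabp2, a fatty acid carrier, fell from 2182 ± 106 to 1114 ± 48 CPM (adjusted p = 1.41e-08). The summed level of the list was 63083 to 65119 CPM with DMSO and 51218 to 55922 CPM with NIBR-LTSi, while Krt20 stayed between 452 and 483 CPM.

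**Figure D5:**
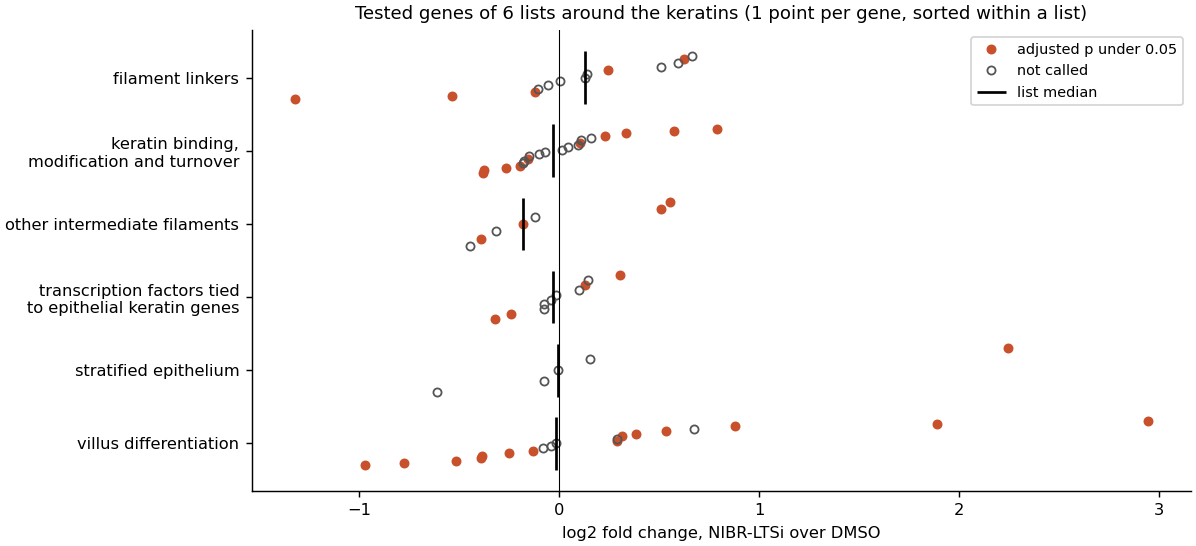
Log2 fold change, NIBR-LTSi over DMSO, of the tested genes in 6 lists around the keratins (1 point per gene; filled where the adjusted p is under 0.05; black bars mark list medians). In each list except that of stratified epithelium, called genes lie on both sides of 0.

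Profiles were compared with 9647 genes with a mean of at least 5 CPM, with all keratins and numbered gene models left out. Among them, the genes with the most similar profiles were found by the root mean square difference of log2(CPM + 0.5), centred on the DMSO mean, over the 6 libraries. For Krt7 these were Cxcl16 (0.0312; a chemokine, 18.7 to 46.2 CPM) and Arl14 (0.0441), and Cxcl16 was also second for Krt23 (0.0452), after Cdc42ep1 (0.0435), an effector of the GTPase CDC42. Krt18 was nearest to Ctsl (0.0213), a lysosomal cathepsin, and Tmsb4x (0.0246), the actin-binding thymosin beta 4, and Krt8 to Lars (0.0246) and Sdf2l1 (0.0282). Krt19 was nearest to Pes1 (0.00567) and Anp32b (0.00623), and Krt20 to Pcyox1 (0.00732) and Vcp (0.00897). Krt4 had Cdk6 (0.173) in second place, and Krt14 had Serpinb9b (0.0726) and Akr1b8 (0.129). For Krt4 and Krt14, whose DMSO levels lie below the 0.5 CPM added before the log, the distance depends on that added value, and the named genes changed by smaller folds than these members.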

How the data were processed

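The authors deposited 1 table of whole-number read counts per gene with a gene width, which was used as given. Build mm10 and the tool edgeR are named, per the submitters' processing notes; aligner, counter and strand setting: not given in the sources used here. Per the labels' protocols, 200 ng of total RNA entered a stranded mRNA kit. GENCODE M21 places the gene Gm671 over Krt7 and Gm36026 over Krt8, and holds a Krt8 pseudogene. Gm671 and Gm36026 have no row in the count table. Reads of these genes and of the pseudogene cannot be told apart from keratin reads with certainty. The same holds for reads of close paralogs such as Krt14, Krt16 and Krt17. Coordinates are RefSeq GRCm38.p6, the assembly of mm10.

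Counts were filtered with filterByExpr (12592 genes) and tested with the edgeR 4.0.16 quasi-likelihood F-test (R 4.3.3, TMM factors, robust, group as the only term, two-sided, 4 residual degrees of freedom), adjusted by Benjamini-Hochberg over all tested genes at 0.05. The SE was derived from the fold change and the F statistic (log2 value over root F). RPKM is TMM CPM per kilobase of deposited width. Shares were compared by exact permutation (scipy 1.17.1). The procedure was tested on simulated data with far fewer changed genes than were called here and with no width effect or single-library outliers. That test does not cover these features of the data. Alternatives used DESeq2 1.42.0, limma 3.58.1 (voom), other scalings and filters, the replicate block, an adjustment for gene width, and each library left out. No pair of libraries within a group agreed within sampling noise (chi-square per degree of freedom 4.65 to 11.9).

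The keratins and all lists were chosen with earlier results of these data known. Named genes were the 8 members, the other tested keratins, up to 4 tested genes per list with the smallest p, and the 2 nearest profiles per member, of which some are not reported here; others are marked where they appear or are named for a count of 0, for a low count or as markers.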

Additional observations from a re-analysis of the deposited data

How the results depend on the processing

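All 7 keratin calls, and the lack of a call for Krt20, held under the 16 alternatives, which reuse the same libraries. Among the 7, the calls of Krt4 and Krt14 add nothing, as these genes passed the filter only through the NIBR-LTSi libraries. The log2 fold changes ranged from 1.25 to 1.35 for Krt7, 0.41 to 0.50 for Krt8, 0.60 to 0.68 for Krt18, 0.26 to 0.33 for Krt19, 1.30 to 1.39 for Krt23, 2.72 to 3.65 for Krt4 and 4.68 to 5.94 for Krt14; the last 2 ranges come from leaving out libraries and rest on few control counts. The keratin shares and the ratio kept their direction under 10 alternatives each, 2 of them, the transcript and coding lengths, chosen after seeing the data. The replicate block, also among the 10, returns the main value by arithmetic and could not turn it. The log2 difference of the ratio ranged from 0.16 to 0.24. As the shares and the ratio re-express the member levels, this is no further support. The count of called genes ranged from 4212 (without DMSO replicate 1) to 5644 (width adjustment) around 5287 of 12592 (42%). Over the keratin-linked lists, chosen with earlier results known, it ranged from 34 to 46 around 38 of 74 tested genes. Among the genes named by the rule, whose settings were compared one by one, the sign turned for 3 uncalled keratins: Krt75 (-0.26 in limma-voom; -0.13 to 0.69 when 1 library was left out), Krt10 (-0.013 to 0.26) and Krt222 (-0.12 to 0.13); the cause was not tested.

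The correlations of same-numbered deviations from the group means were 0.05, -0.30 and 0.56, and not every library correlated best with its own number. With 3 libraries per group these values depend on each other. They cannot decide whether a replicate number marks a shared culture or batch. With the replicate block the count of called genes was 4945, and the 7 keratins were called. The type II to type I difference of 0.18 could not change, as the mean of same-numbered differences equals the difference of means. The median log2 fold change of all genes was 0.02, and 0.06 with library totals only. Depth limits Krt4, Krt14, Krt80 and the skin keratins, where a few counts set the control level.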

Other observations

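Krt5 and Krt2 were also looked at beside the whole table. Of 24594 rows, 2 had at least 100 counts in 1 library and at most 5% of that library's CPM in every other, and both are keratins: Krt5 in NIBR-LTSi replicate 2 and Krt2 in DMSO replicate 1. At a minimum of 50 counts and at most 10% the same 2 rows were found, and at 30 counts and 20% there were 6 rows, of which 2 were keratins. These thresholds were chosen after the values were seen, and the source of the counts was not tested.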
